A study of Mus musculus with 6 samples.

Results

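The 10 genes described here were chosen by name as rows of the deposited expression table. They are Gdf15, the ligands Tgfb1, Tgfb2, Tgfb3, Bmp4, Bmp10, Inhbb and Mstn, and the receptors Tgfbr1 and Tgfbr2. All 10 names were found, among 24972 gene rows. RNA was sequenced from heart cells of mice carrying MX1gfp, a reporter allele that links green fluorescent protein to the interferon-induced gene Mx1; both groups carried it, and the labels give neither age nor sex. One group of 3 mice was injected intraperitoneally with vehicle, phosphate buffered saline, and the other group of 3 with 1 dose of 25 mg/kg doxorubicin, an anthracycline cancer drug that poisons topoisomerase II and is toxic to the heart. Hearts were taken 48 h later, digested with collagenase and separated from their atria, and the ventricular cells, septum included, were left to settle by gravity, which enriches for cardiomyocytes without sorting them.

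Ligands of the transforming growth factor beta superfamily are made as larger precursors, cut by furin-like proteases and released as disulphide-linked dimers. They bring together type II and type I receptor kinases, and the type I kinase then phosphorylates Smad proteins, which enter the nucleus with Smad4. The TGF-beta and activin ligands act mainly through Smad2 and Smad3, the bone morphogenetic proteins (BMPs) through Smad1, Smad5 and Smad9. In the heart TGF-beta is known for driving fibroblasts toward matrix production, BMP10 for the growth of the developing myocardium, and GDF15, a distant relative, for its secretion by stressed cells and its action on appetite through the brainstem receptor GFRAL.

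Promoter sequences are shown for 4 of the 5 members whose doxorubicin values all lay above their vehicle values, and for Tgfb1, a tested member whose groups overlapped, so that they can be compared. Each is the 250 bases before a RefSeq transcription start in GRCm38.p6, the outermost one in the promoter table used, read 5′ to 3′ on the strand of the gene. For Gdf15 that start lies 14 bases inside the outer edge of the annotated gene, so the window overlaps the gene by 14 bases, and the other 4 windows end at the edge of the gene. The Tgfb2 window of the table lies wholly inside the gene and is not shown. The window of Tgfbr1, the remaining member without overlap, is not shown either, and its matches are given below. Capitals mark matches, on either strand, to one of 9 searched motifs: the TATA box (TATAAA), the GC box (GGGCGG), the E-box (CACGTG), the AP-1 site (TGANTCA), the cAMP response element (TGACGTCA), the ATF4 composite site (TGATGNAA), the Smad palindrome (GTCTAGAC), the BMP-Smad site (GGCGCC) and the p53 half-site.
Gdf15, chr8:70632457-70632706, minus strand: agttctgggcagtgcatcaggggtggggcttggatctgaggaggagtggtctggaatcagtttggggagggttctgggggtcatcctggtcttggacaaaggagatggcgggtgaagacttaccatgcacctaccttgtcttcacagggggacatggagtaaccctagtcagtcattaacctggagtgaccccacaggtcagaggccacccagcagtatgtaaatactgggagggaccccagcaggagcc
Bmp4, chr14:46390670-46390919, minus strand: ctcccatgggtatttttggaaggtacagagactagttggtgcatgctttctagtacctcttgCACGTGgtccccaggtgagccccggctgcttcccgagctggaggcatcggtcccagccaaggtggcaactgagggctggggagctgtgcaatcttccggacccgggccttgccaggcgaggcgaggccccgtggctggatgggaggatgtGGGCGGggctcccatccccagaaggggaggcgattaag
Inhbb, chr1:119422249-119422498, minus strand: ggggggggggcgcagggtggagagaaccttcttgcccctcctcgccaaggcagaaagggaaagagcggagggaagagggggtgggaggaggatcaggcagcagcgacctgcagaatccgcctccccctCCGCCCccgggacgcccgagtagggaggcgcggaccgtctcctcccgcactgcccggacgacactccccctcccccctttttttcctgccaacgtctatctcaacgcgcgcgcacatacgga
Tgfbr2, chr9:116175364-116175613, minus strand: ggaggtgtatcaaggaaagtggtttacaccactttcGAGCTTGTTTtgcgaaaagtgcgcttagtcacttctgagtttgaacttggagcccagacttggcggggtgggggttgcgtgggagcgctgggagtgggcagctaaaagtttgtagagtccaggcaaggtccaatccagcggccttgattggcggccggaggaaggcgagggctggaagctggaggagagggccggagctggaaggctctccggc
Tgfb1, chr7:25686752-25687001, plus strand: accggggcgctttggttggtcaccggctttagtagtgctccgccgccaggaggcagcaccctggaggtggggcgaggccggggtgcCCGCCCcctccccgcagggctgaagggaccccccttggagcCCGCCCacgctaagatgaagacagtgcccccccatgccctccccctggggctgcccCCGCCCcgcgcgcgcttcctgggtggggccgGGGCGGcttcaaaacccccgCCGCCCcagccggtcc

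These windows did not share one motif. Bmp4 held an E-box and a GC box, Inhbb a GC box, Tgfbr2 a p53 half-site, and Tgfb1 5 GC boxes. None of the 9 motifs was found in the Gdf15 window. The Tgfbr1 window, not shown, held 2 GC boxes and a BMP-Smad site. Over 27025 promoters of the same length, one per gene, 33.0% held a GC box, 9.57% a BMP-Smad site, 7.16% a p53 half-site and 6.04% an E-box. RefSeq windows were matched for 9 of the 10 members, Tgfb3 having none in the table used. Their GC content ran from 38.4% in Mstn to 75.2% in Tgfb1, against a median of 52.0% over all promoters. A match describes the letters only.

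Normalized counts summed to between 7217950 and 7500390 in the vehicle libraries and between 5410780 and 6498370 in the doxorubicin libraries. The estimated read numbers were 7710000 to 11370000 and 3670000 to 6170000, so depth and treatment cannot be told apart. Cardiomyocyte markers were present in every library: 10 markers summed to 632835 to 738576 in vehicle libraries and to 559754, 188548 and 162936 in doxorubicin replicates 1, 2 and 3. The marker with the highest mean count, the cardiac myosin gene Myh6, had 181986, 272263 and 300008 in vehicle and 225671, 33549 and 47431 in doxorubicin libraries. By these markers doxorubicin replicate 1 stood closer to the vehicle libraries than replicates 2 and 3 did, and member values are given with and without it. That library was singled out by its values in these same data. Leaving out a doxorubicin library that lies near vehicle favours larger differences and smaller p values. Results without it therefore show how much depends on that library and are no separate evidence of a difference. Markers of other cells were also detected, none of them listed at 0 throughout. The 10 fibroblast markers summed to 7091 to 9313 in vehicle and to 9688, 24755 and 18288 in doxorubicin replicates 1, 2 and 3. Dcn made up most of the sums of replicates 2 and 3. Without it the sums were 4512 to 6407 in vehicle and 6575, 6683 and 6962 in doxorubicin libraries. By these sums replicate 1 was no longer apart from replicates 2 and 3. The median log2 distance of these 9 markers from their vehicle mean was still smaller in replicate 1, at 0.25, against 0.60 and 0.92 in replicates 2 and 3. The 10 endothelial markers summed to 17094 to 23683 in vehicle and 32348 to 41552 in doxorubicin libraries, and the 10 macrophage markers to 2515 to 2723 and 4122 to 15034. Without their leading genes, Fabp4 and Lyz2, both sums were still higher in every doxorubicin library (13352 to 17214 against 21108 to 26861, and 1787 to 1925 against 2740 to 8223). In such bulk samples, fewer cells of a type and less RNA per cell cannot be told apart.

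**Figure D1:**
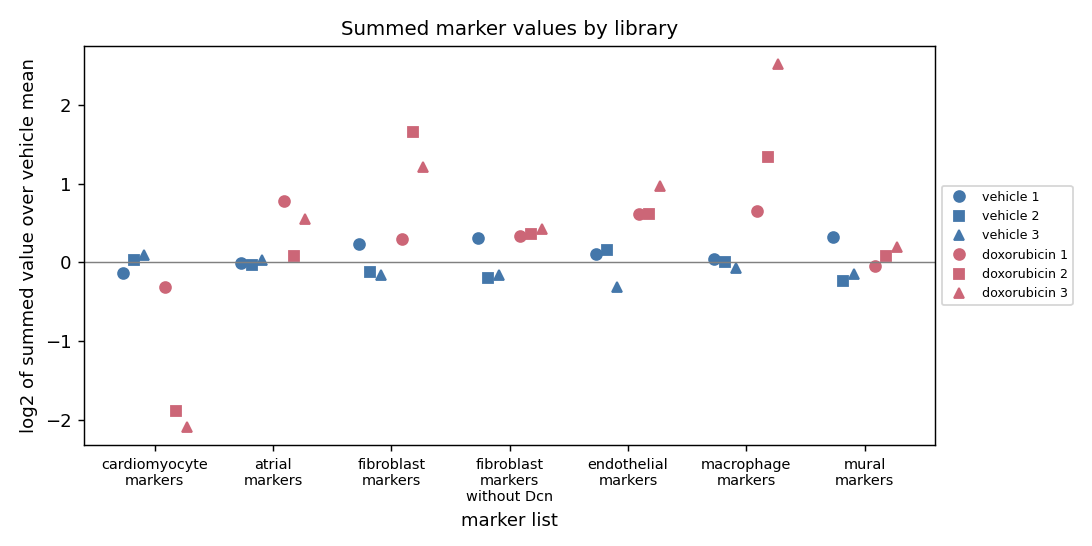
Summed normalized counts of each marker list, as log2 of the sum over the vehicle mean (y axis), for the 6 libraries (blue vehicle, red doxorubicin; circle, square and triangle for replicates 1, 2 and 3). Cardiomyocyte markers in doxorubicin replicate 1 lie near the vehicle libraries and those in replicates 2 and 3 far below. The fibroblast sum parts the doxorubicin replicates only while Dcn is in it. Single fibroblast markers are not shown.

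The comparison asked whether these genes differed between doxorubicin and vehicle. With all 6 libraries, limma with Benjamini-Hochberg adjustment over 12477 genes called 0 members at an adjusted p under 0.05, as it called 0 (0%) of all genes, with a smallest adjusted p of 0.0859. A total of 8 members had a mean of at least 10 normalized counts and were tested, and Bmp10 and Mstn were not. The 8 tested members had log2 fold changes from 0.19 to 2.11, with a median of 0.95, against a median of -0.00462 over all genes tested. An unadjusted limma p under 0.05 was found for 5 of the 8 and for 4485 of the 12477 genes tested, so it was common. In 5 of the 8 (Gdf15, Bmp4, Inhbb, Tgfbr1 and Tgfbr2) every doxorubicin library lay above every vehicle library, as in 19.2% of all genes tested (22.6% in the downward direction), and in 0 every one lay below. With doxorubicin replicate 1 left out this held for all 8, beside 31.6% of all genes. With libraries scaled to equal totals it also held for all 8, but that scaling moved the median of all genes to 0.29 and the shares of all genes to 36.7% upward and 10.1% downward. Without doxorubicin replicate 1, limma called 6 of the 8, all higher, beside 19.3% of all genes called higher and 21.8% called lower. Those 6 were the 5 named above and Tgfb3, and the 2 not called were Tgfb1 and Tgfb2.

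**Figure D2:**
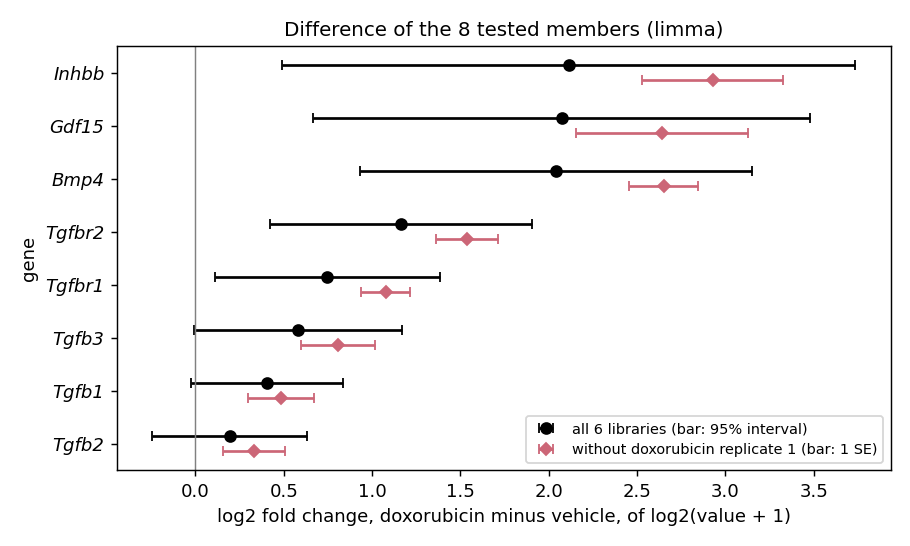
Log2 fold change of the 8 tested members (x axis, difference of mean log2(value + 1), positive where doxorubicin was higher), with all 6 libraries (black, 95% interval) and without doxorubicin replicate 1 (red, 1 SE). Inhbb, Gdf15 and Bmp4 lie near 2 with all libraries, and each of the 8 points moves to the right when replicate 1 is left out.

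Gdf15 (chromosome 8, 70629393 to 70632470, minus strand, GRCm38) encodes growth differentiation factor 15, a secreted stress protein and a known p53 target. It had 8.94, 16.6 and 6.28 normalized counts in vehicle replicates 1, 2 and 3 and 19.7, 46.2 and 95.9 in doxorubicin replicates 1, 2 and 3. The groups did not overlap, but the lowest doxorubicin library was only 1.19 times the highest vehicle library, and the 3 doxorubicin libraries differed widely. The means were 10.6 ± 5.35 and 54.0 ± 38.7 (SD, n = 3 in each group). The log2 fold change was 2.07 (SE 0.60, 95% interval 0.66 to 3.48, limma adjusted p 0.0859), and 2.64 without doxorubicin replicate 1 (adjusted p 0.00428). This was the most thinly covered of the tested members, resting on an estimated 7 to 17 reads in a vehicle library and 19, 38 and 65 in the doxorubicin libraries. Its receptor Gfral was listed at 0 in every library, while Ret, the kinase with which GFRAL signals, had 69.8 to 108 normalized counts in vehicle and 88.9 to 125 in doxorubicin libraries.

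The ligands TGF-beta 1, 2 and 3 share the receptors TGFBR1 and TGFBR2 and are the classical fibrosis-associated members. Tgfb1 (chromosome 7, 25687002 to 25705077, plus strand) stood at 482, 401 and 329 normalized counts with vehicle, against 472, 519 and 604 with doxorubicin. The groups overlapped, since doxorubicin replicate 1 lay below vehicle replicate 1. Its log2 fold change of 0.40 (SE 0.18, 95% interval -0.02 to 0.83, limma adjusted p 0.156) followed from means of 404 ± 76.3 and 531 ± 66.8 (SD, n = 3). Tgfb3 (chromosome 12, 86056743 to 86079041) had 159.6, 102 and 143 in vehicle and 145, 230.3 and 235 in doxorubicin libraries. Doxorubicin replicates 2 and 3 lay above all vehicle libraries, while replicate 1 lay among them. The log2 fold change of Tgfb3 was 0.58 (SE 0.25, 95% interval -0.01 to 1.17, limma adjusted p 0.142), or 0.81 without doxorubicin replicate 1 (adjusted p 0.0172).

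Tgfb2 (chromosome 1, 186622787 to 186709697, minus strand) encodes the isoform best known from heart valve development. Its vehicle libraries were nearly equal at 81.8, 82.7 and 79.5 normalized counts, and the doxorubicin libraries had 76.7, 95.3 and 111. Replicate 1 of doxorubicin lay below all vehicle libraries and the other 2 above them. The means were 81.3 ± 1.67 and 94.2 ± 16.9 (SD, n = 3), and the log2 fold change of 0.19 (SE 0.19, 95% interval -0.24 to 0.63, limma adjusted p 0.478) was the smallest of the tested members. Without doxorubicin replicate 3 it was 0.07.

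Bmp4 (chromosome 14, 46383525 to 46390669, minus strand) encodes bone morphogenetic protein 4, a ligand of the type I receptors BMPR1A and BMPR1B. Its normalized counts were 35.1, 39.8 and 46.2 with vehicle and 71.7, 243 and 272 with doxorubicin. Of the 5 members whose groups did not overlap it had the widest gap, the lowest doxorubicin library being 1.55 times the highest vehicle library. The means were 40.3 ± 5.56 and 196 ± 108 (SD, n = 3). The log2 fold change was 2.04 (SE 0.48, 95% interval 0.93 to 3.15, limma adjusted p 0.0859), and 2.65 without doxorubicin replicate 1 (adjusted p 0.000167).

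Bmp10 (chromosome 6, 87428994 to 87434512, plus strand) encodes a BMP that the adult heart makes mainly in atrial myocytes. It was listed at 0 in all 3 vehicle libraries and in doxorubicin replicate 2, and at 5.24 and 16.3 normalized counts in doxorubicin replicates 1 and 3. These correspond to an estimated 5 and 11 reads, and no fold change is given. Atrial markers were not the same in the libraries either. Of 8 tested, 7 had positive differences and only Kcnj3 a negative difference. Groups did not overlap in 2, both upward (25%, against 19.2% of all genes). Kcnj3, an atrial potassium channel gene and the marker with the highest mean count, had 694, 797 and 987 normalized counts in vehicle and 791, 281 and 276 in doxorubicin libraries (log2 fold change -1.05, limma adjusted p 0.110; -1.55 without doxorubicin replicate 1, adjusted p 0.000586). Myl7, the atrial myosin light chain, had 28.7 to 75.5 normalized counts in vehicle libraries and 236, 44.3 and 61.3 in doxorubicin replicates 1, 2 and 3. The 10 atrial markers, Bmp10 among them, summed to 1693 to 1779 in vehicle libraries and to 2980, 1836 and 2553 in the doxorubicin libraries, so the libraries with Bmp10 were those with the higher atrial sums. Without Kcnj3 the sums were 792 to 1039 in vehicle and 2189, 1555 and 2277 in doxorubicin libraries, in which the same holds. The part that leftover atrial tissue played was not tested.

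Inhbb (chromosome 1, 119415463 to 119422248, minus strand) encodes the beta B chain shared by inhibin B and activin B. The vehicle libraries held 33.5, 23.8 and 34.4 normalized counts of it, and the doxorubicin libraries 42.6, 390.4 and 143. All 3 doxorubicin libraries exceeded the vehicle libraries, with replicate 1 just above them and replicate 2 far higher than the rest. The means were 30.5 ± 5.89 and 192 ± 179 (SD, n = 3), so the doxorubicin SD was almost as large as the mean. The log2 fold change was 2.11 (SE 0.70, 95% interval 0.49 to 3.74, limma adjusted p 0.0890), 2.93 without doxorubicin replicate 1 (adjusted p 0.00123) and 1.35 without replicate 2. Mstn (chromosome 1, 53061640 to 53068079, plus strand) encodes myostatin, the muscle-growth inhibitor that also signals through activin type II receptors. It was near the level of 1 read throughout, with 0.646, 1.93 and 0.894 normalized counts in vehicle and 1.04, 0 and 1.42 in doxorubicin libraries, and no difference was detectable at this depth.

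**Figure D3:**
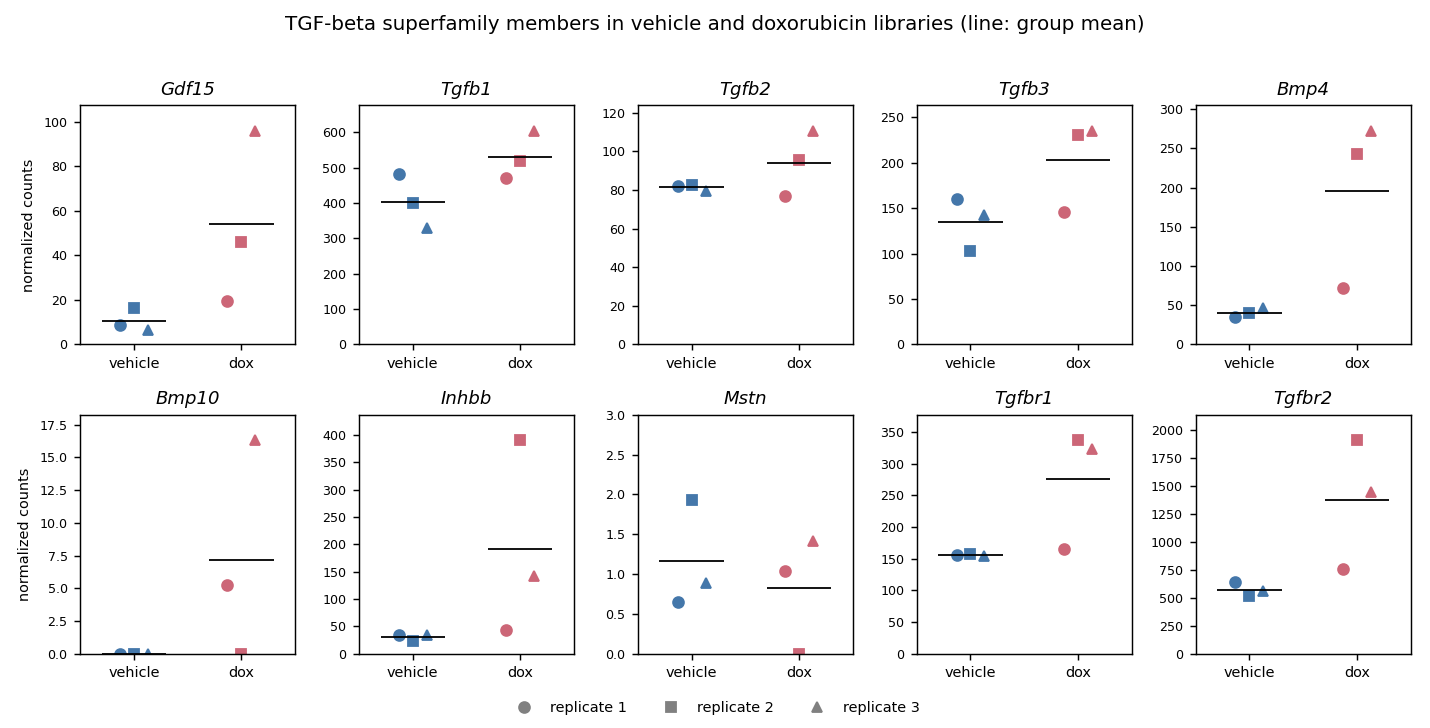
Normalized counts of the 10 members (y axes, each from 0) in the vehicle (blue) and doxorubicin (red) libraries, with circle, square and triangle for replicates 1, 2 and 3 and a line at the group mean. Replicate 1 is the lowest doxorubicin library in each of the 8 tested members, and the vehicle libraries of Tgfb2 and Tgfbr1 are nearly equal.

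The receptors each had a positive log2 fold change, and the sizes were not tested against each other. Tgfbr2 (chromosome 9, 116087695 to 116175363, minus strand) encodes the type II kinase that binds TGF-beta first. Normalized counts of Tgfbr2 were 638, 518 and 563 with vehicle and 761, 1908 and 1444 with doxorubicin, without overlap. The means were 573 ± 60.4 and 1371 ± 577 (SD, n = 3), and the log2 fold change was 1.16 (SE 0.32, 95% interval 0.42 to 1.90, limma adjusted p 0.0859), or 1.54 without doxorubicin replicate 1 (adjusted p 0.000607). Tgfbr1 (chromosome 4, 47353222 to 47414926, plus strand) encodes the type I kinase that phosphorylates Smad2 and Smad3. Its vehicle libraries stood at 155, 157 and 155 normalized counts and its doxorubicin libraries at 165, 337 and 324. Replicate 1 of doxorubicin was just 1.05 times the highest vehicle library, whereas replicates 2 and 3 were about level with each other. The means were 156 ± 1.46 and 275 ± 95.5, and the log2 fold change was 0.75 (SE 0.27, 95% interval 0.11 to 1.38, limma adjusted p 0.104), or 1.08 without doxorubicin replicate 1 (adjusted p 0.000963).

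The members differed among themselves in which doxorubicin library stood farthest from the vehicle mean. On the log2(value + 1) scale, Gdf15 lay 0.94, 2.12 and 3.16 above its vehicle mean in doxorubicin replicates 1, 2 and 3, and Inhbb 0.49, 3.65 and 2.21. Gdf15 was thus farthest in replicate 3 and Inhbb in replicate 2. Bmp4 lay at 0.82, 2.57 and 2.73, and Tgfbr2 at 0.41, 1.74 and 1.34. The median distance of the 8 tested members was 0.33 in replicate 1, 1.42 in replicate 2 and 1.19 in replicate 3, where the medians of all genes tested were -0.0149, 0.00234 and -0.0061. Inhbb, Tgfbr1 and Tgfbr2 were highest in replicate 2, and Gdf15, Bmp4, Tgfb1, Tgfb2 and Tgfb3 in replicate 3. Some of these ranks were close, with distances in replicates 2 and 3 of 1.11 and 1.05 for Tgfbr1 and of 0.79 and 0.82 for Tgfb3. The endothelial and macrophage sums were highest in replicate 3, also without Fabp4 and Lyz2. The fibroblast sum was highest in replicate 2 with Dcn and in replicate 3 without it. The part of these cell types in the differences was not tested.

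**Figure D4:**
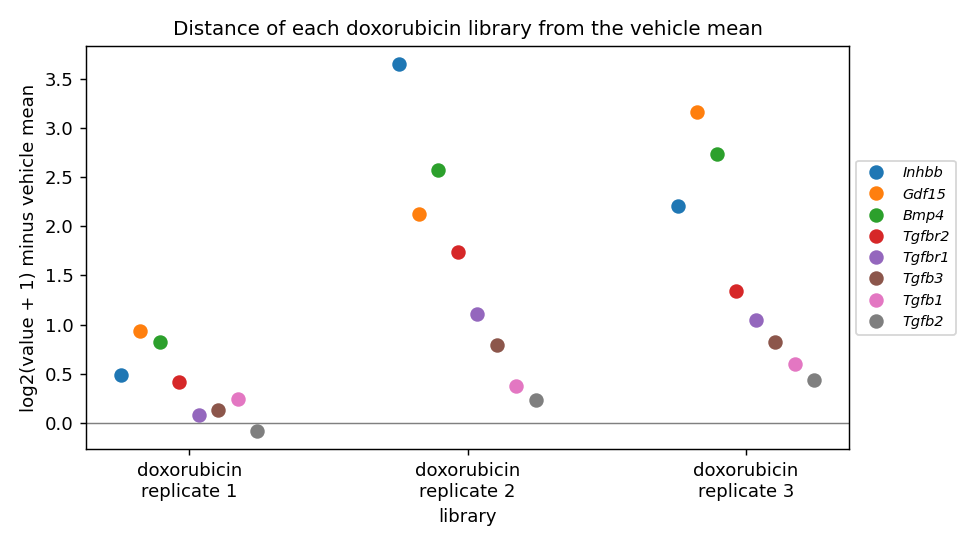
Distance of each doxorubicin library from the vehicle mean (y axis, log2(value + 1)) for the 8 tested members, by library (x axis). In replicate 1 the members lie between -0.08 and 0.94, and in replicates 2 and 3 all lie above 0, with Inhbb highest at 3.65 in replicate 2 and Gdf15 highest at 3.16 in replicate 3.

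Libraries also fell into classes by sex-linked transcripts, which the labels do not mention. Vehicle replicates 1 and 2 and doxorubicin replicate 2 had Y-linked transcripts, and the other 3 libraries had Xist. Each class holds a single library of one group, so the within-class values carry no test. Within the class with Y-linked transcripts the log2 differences were 3.74 for Inhbb, 2.67 for Bmp4, 1.84 for Gdf15, 1.73 for Tgfbr2, 1.10 for Tgfbr1, 0.84 for Tgfb3, 0.24 for Tgfb1 and 0.21 for Tgfb2. Within the class with Xist they were 1.16, 1.58, 2.62, 0.90, 0.58, 0.37, 0.70 and 0.21 in the same order. All 8 were positive in both classes. With the class as a term in the fit, limma called 0 genes, and the log2 fold changes of Gdf15, Bmp4 and Inhbb were 2.23, 2.12 and 2.45.

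Levels of the members were compared with each other only after division by exon length, in normalized counts per kilobase of annotated exon. In vehicle libraries Tgfb1 was highest at 186 ± 35.1 per kilobase, followed by Tgfbr2 (70.0 ± 7.38), Tgfb3 (39.9 ± 8.70), Tgfbr1 (24.3 ± 0.228), Bmp4 (19.5 ± 2.69), Tgfb2 (15.6 ± 0.321), Inhbb (7.18 ± 1.39), Gdf15 (5.72 ± 2.89) and Mstn (0.428 ± 0.252), with Bmp10 listed at 0 (SD, n = 3). Of these neighbours, only the libraries of Inhbb and Gdf15 overlapped. In doxorubicin libraries Tgfb1 stayed in first place by its mean (244 ± 30.7 per kilobase), with Tgfbr2 (167 ± 70.5) and Bmp4 (94.8 ± 52.5) next, and Gdf15 stood at 29.1 ± 20.9. Every neighbouring pair in that order overlapped except Tgfb2 (18.1 ± 3.25) and Bmp10 (1.60 ± 1.85). Overlap here compares ranges over the libraries of a group and not genes within each library. Tgfb1 and Bmp4, which were not neighbours, lay apart, with 217 as the lowest of Tgfb1 and 132 as the highest of Bmp4.

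The other genes of the pathway were taken from 7 lists, which hold 121 further genes of the table; 90 had a mean of at least 10 and were tested. With all 6 libraries 0 of the 90 were called. Groups did not overlap in 29 upward and 7 downward, or 32.2% and 7.78%, against the 19.2% and 22.6% of all genes, and the median log2 fold change was 0.35. Without doxorubicin replicate 1, limma called 34 of the 90 higher (37.8%) and 11 lower (12.2%), against 19.3% and 21.8% of all genes. Medians by list were 0.70 for extracellular inhibitors, 0.62 for other ligands, 0.56 for transcriptional targets, 0.39 for latency and activation, 0.28 for other receptors, 0.06 for Smad proteins and -0.0047 for intracellular regulators. The last list, of ubiquitin ligases, repressors and phosphatases that act inside the cell, had 1 gene higher and 4 lower of 14 without overlap (7.14% and 28.6%).

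**Figure D5:**
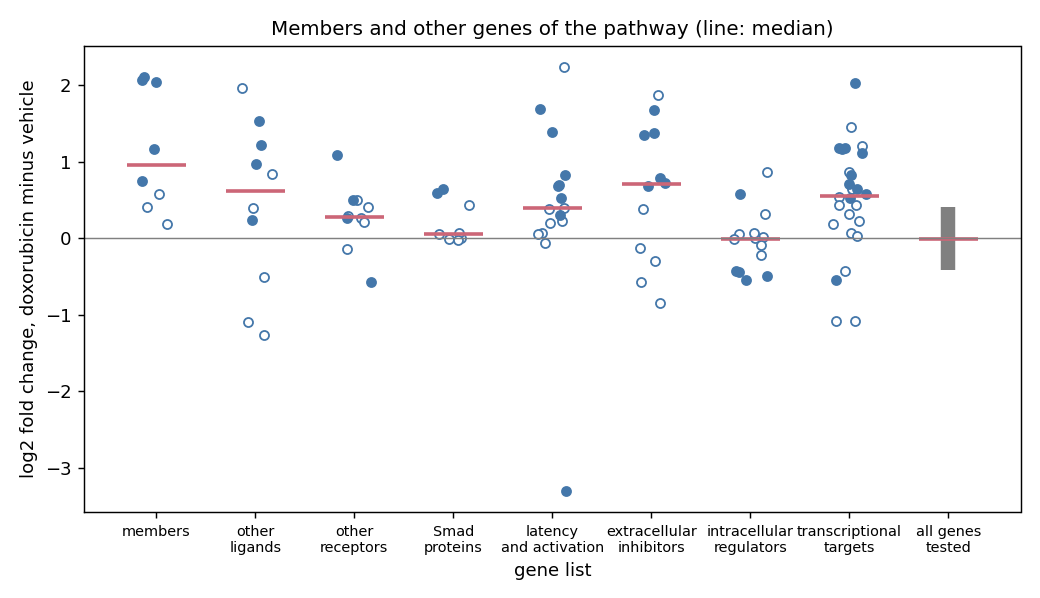
Log2 fold change (y axis) of each tested gene in the members and the 7 other pathway lists (x axis); filled points are genes whose groups did not overlap, open points the others, the red line is the list median, and the grey bar spans the middle quartiles of all genes tested. The member median is 0.95, and the lists closest to 0 are the Smad proteins and the intracellular regulators.

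Among the other ligands, 10 of 26 were tested, and groups did not overlap in 4 (40%, against 19.2% of all genes), all upward. Bmp6, an iron-regulating BMP made by endothelial cells, went from 300.0 ± 27.6 to 968 ± 479 normalized counts (SD, n = 3; log2 fold change 1.53, limma adjusted p 0.0859; 2.03 without doxorubicin replicate 1, adjusted p 0.000178). Inhba, which encodes the other main activin chain, had 33.7, 16.4 and 8.90 in vehicle and 26.2, 193 and 65.8 in doxorubicin libraries, and its groups overlapped (1.96, adjusted p 0.108; 2.65 without doxorubicin replicate 1, adjusted p 0.00946). Like Inhbb it was highest in doxorubicin replicate 2. Bmp1 encodes a procollagen-cleaving protease and no ligand despite its name, and differed by 0.24 (adjusted p 0.238). The 16 untested ligands included Inhbc, Inhbe, Bmp8a and Gdf7, each listed at 0 in every library.

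Of the 10 other receptors tested, groups did not overlap upward in 3 (30%) and downward in 1 (10%), against 19.2% and 22.6% of all genes. Type I receptors stood on both sides. Acvrl1, the endothelial type I receptor for BMP9 and BMP10, went from 423 ± 50.3 to 932 ± 304 normalized counts (log2 fold change 1.09, limma adjusted p 0.0859), and Bmpr1a, the widely expressed type I receptor that binds BMP4, went from 821 ± 25.3 to 554 ± 72.5 (-0.57, adjusted p 0.0859). Neither gene's groups overlapped, and both passed the threshold without doxorubicin replicate 1 (1.32 with adjusted p 0.00151 and -0.65 with adjusted p 0.00999). Eng, the endothelial co-receptor, differed by 0.51 (adjusted p 0.147). Bmpr2, the BMP type II receptor, differed by 0.40 (adjusted p 0.180; 0.57 without doxorubicin replicate 1, adjusted p 0.0255) and Acvr2a, an activin type II receptor, by -0.14 (adjusted p 0.669), both with overlap.

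Of the 8 Smad genes, 6 had positive and 2 negative differences. Smad4, the shared partner, went from 641 ± 27.1 to 667 ± 29.8 normalized counts (log2 fold change 0.06, limma adjusted p 0.777), while Smad5 differed by 0.07 and Smad3 by -0.01. Smad7, an inhibitory Smad, and Smad1, a BMP transducer, were the 2 whose groups did not overlap (25%, against 19.2% of all genes). The gaps were narrow, the lowest doxorubicin library being only 1.01 times the highest vehicle library in each. Smad7 differed by 0.65 (adjusted p 0.151) and Smad1 by 0.59 (adjusted p 0.120). Without doxorubicin replicate 1 they differed by 0.92 (adjusted p 0.0140) and 0.79 (adjusted p 0.0154).

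Of 16 tested genes that store or activate latent TGF-beta, 14 had positive and 2 negative differences, and groups did not overlap upward in 6 (37.5%) and downward in 1 (6.25%), against 19.2% and 22.6% of all genes. Thbs1, the matrix protein thrombospondin that can activate latent TGF-beta, had 119, 103 and 64.9 normalized counts in vehicle and 74.7, 1104 and 1031 in doxorubicin libraries. Its groups overlapped because replicate 1 lay within the vehicle range, and the log2 fold change was 2.24 (limma adjusted p 0.137), or 3.51 without that library (adjusted p 0.000151). Itgb6, the integrin beta chain of an activating receptor for TGF-beta, had 177, 192 and 180 in vehicle and 165, 6.12 and 4.42 in doxorubicin libraries, a log2 fold change of -3.30 (adjusted p 0.0982) and of -4.89 without replicate 1 (adjusted p 4.42e-05). Mmp2, a matrix protease, went from 453 ± 11.2 to 1352 ± 715 (1.39, adjusted p 0.0860; 1.94 without doxorubicin replicate 1, adjusted p 0.000173). Ltbp4 and Fbn1, which anchor latent TGF-beta in the matrix, differed by 0.07 and 0.40 (adjusted p 0.852 and 0.178), and Ltbp1 by -0.06.

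Of 12 extracellular inhibitors tested, groups did not overlap upward in 6 (50%) and downward in 0, against 19.2% and 22.6% of all genes. Dcn, the proteoglycan decorin that binds TGF-beta, had 2905, 2767 and 2446 normalized counts in vehicle and 3113, 18072 and 11326 in doxorubicin libraries (log2 fold change 1.67, limma adjusted p 0.0966; 2.41 without doxorubicin replicate 1, adjusted p 0.000418). Chrd, the BMP antagonist chordin, went from 16.9 ± 4.99 to 88.4 ± 67.4 with overlap (1.87, adjusted p 0.125; 2.83 without doxorubicin replicate 1, adjusted p 0.000695). Bgn, the proteoglycan biglycan, differed by 0.68 (adjusted p 0.0859), Htra1, a secreted protease, by -0.85 (adjusted p 0.0989), and Wfikkn2, a myostatin-binding protein, by -0.57 (adjusted p 0.269). Without doxorubicin replicate 1 Bgn and Htra1 differed by 0.82 (adjusted p 0.0056) and -1.20 (adjusted p 0.00138). Dcn stands in the fibroblast marker list too. The other 9 fibroblast markers summed to 4512 to 6407 in vehicle and 6575 to 6962 in doxorubicin libraries. Their median log2 fold change was 0.67, and the part of fibroblast RNA in the difference of Dcn was not tested.

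Inside the cell, Skil and Ski, repressors of Smad-driven transcription, differed by 0.58 and 0.32 (limma adjusted p 0.0864 and 0.257). Wwp1, a ubiquitin ligase, and Usp15, a deubiquitinase acting on the receptor complex, differed by -0.54 and -0.49 (adjusted p 0.0891 and 0.0878), in both cases without overlap. Without doxorubicin replicate 1 these 4 genes differed by 0.69, 0.50, -0.66 and -0.55 (adjusted p 0.0148, 0.0321, 0.0136 and 0.0272). Fkbp1a, which binds type I receptors and the ryanodine receptor, and Ppm1a, a phosphatase, differed by -0.09 and -0.43.

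Of 26 transcriptional targets tested, 22 had positive and 4 negative differences. Groups did not overlap upward in 10 (38.5%) and downward in 1 (3.85%), against 19.2% and 22.6% of all genes. Tgfbi, a TGF-beta-induced matrix protein that macrophages also make, had 165, 177 and 167 normalized counts in vehicle and 268, 519 and 2413 in doxorubicin libraries (log2 fold change 2.03, limma adjusted p 0.0939; 2.71 without doxorubicin replicate 1, adjusted p 0.00511). Its high value was in doxorubicin replicate 3, the library with the highest macrophage and endothelial sums. The part of these cell types in the difference of Tgfbi was not tested. Ctgf, a matricellular target of TGF-beta, had 448, 610 and 649 in vehicle and 392, 2712 and 2039 in doxorubicin libraries (1.20, adjusted p 0.218; 2.06 without doxorubicin replicate 1, adjusted p 0.0004), replicate 1 lying below all vehicle libraries. Its relative Cyr61 was lower, from 2428 ± 1032 to 1187 ± 593 (-1.07, adjusted p 0.127), as was Acta2, the smooth muscle actin of myofibroblasts and mural cells, from 1332 ± 572 to 788 ± 633 (-1.08, adjusted p 0.288). Col3a1, a fibrillar collagen chain, differed by -0.42 (adjusted p 0.458). Groups overlapped in Ctgf and in these 3. Without doxorubicin replicate 1, Cyr61, Acta2 and Col3a1 differed by -1.44, -1.74 and -0.84 (adjusted p 0.0179, 0.0374 and 0.0385).

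The genes whose pattern over the 6 libraries was most like that of Gdf15 were named by Pearson correlation of log2(value + 1) among 8225 genes with a mean of at least 100. They were Dab2ip, Inf2, Reep3, Ablim3 and Tcf7l1, with r from 0.995 to 0.997 over 6 libraries. The points share library depth and treatment group, and 943 genes (11.5%) had an r above 0.9, so a high value was common. The closest, Dab2ip, had 1017, 1171 and 875 normalized counts in vehicle and 1264, 1563 and 1939 in doxorubicin libraries, which is the order of the libraries in Gdf15. The log2 fold change of Dab2ip was 0.63 (limma adjusted p 0.0890; 0.78 without doxorubicin replicate 1, adjusted p 0.0113), against 2.07 for Gdf15.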

How the data were processed

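Total RNA was sequenced from 6 libraries, each from 1 mouse, 3 per group, grouped and numbered by the sample titles. STAR 2.6.1a and Salmon are named in the submitters' processing notes. Per the labels, alignment to mm10 with RefSeq genes used BaseSpace RNAseq Alignment 2.0.2, followed by RNA-seq Differential Expression 1.0.1. The authors deposited normalized counts per gene, handled here as a non-negative signal. How they were normalized, filtered and counted by strand is not given in the sources used here. Too few values came out as whole reads for a test on counts, and read numbers are estimates from the most common low value of each library.

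After log2(value + 1), the 12477 genes with a mean of at least 10 entered limma 3.58.1 (R 4.3.3, empirical Bayes with trend, two-sided, Benjamini-Hochberg adjustment over all genes, threshold 0.05). Fold changes are on that scale, which understates changes of low genes. An exact permutation test of 3 against 3 cannot give a p below 0.1 and was not used. The fit was tested on simulated data. Members and gene lists were chosen with earlier results of these data known. Named genes were all 10 members, in each pathway list the 2 genes with the highest mean normalized count, not divided by length, and the 2 with the largest positive and negative differences among genes with a mean of at least 50, the 5 genes most like Gdf15, and the marker of the highest mean for each cell type. Ret, Gfral, Myl7, the untested ligands at 0, Adgre1, Cx3cr1 and the neutrophil genes were added after their values were seen, as were the marker sums without their leading gene. List symbols absent from the table were matched through RefSeq synonyms, and 1 (Gasp1) was a second name of another entry. Exon lengths came from GENCODE M21, coordinates and promoters from RefSeq for GRCm38.p6, the assembly that mm10 denotes. Plots used matplotlib 3.10.9 under Python 3.11.15. Alternatives covered pseudocounts of 0.5 and 8, no filter, a minimum mean of 50, equal totals, quantile normalization, no trend, a replicate block, library weights, a class term and leaving out each library; those for the overlap of groups were added after the data were seen.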

Additional observations from a re-analysis of the deposited data

How the results depend on the processing

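The sign of the difference was kept by all 8 tested members in each of 127 member values computed under the alternatives, which leave out Bmp10 and Mstn, and Gdf15 at a minimum mean of 50. When 1 library was left out, the calls of members depended on doxorubicin replicate 1. Leaving out 1 library gave 0 to 2409 genes higher, 0 to 2718 lower and 0 to 6 members called, the upper values all without doxorubicin replicate 1; without replicate 2 there was 1 lower, Zfp966. Library weights gave 1954 higher and 2318 lower of 12477 genes, and 6 members. The weights were 0.277 and 0.425 for doxorubicin replicates 1 and 3, and 1.13 to 3.24 for the other libraries. They were estimated from these same values, so the calls under them are no separate evidence of a difference. Every other alternative gave 0. Members with groups that do not overlap numbered 5 to 8 when 1 library was left out, 8 without doxorubicin replicate 1 (31.6% of all genes) and 8 with equal totals. Equal totals moved the median of all genes to 0.29, and the genes without overlap from 19.2% higher and 22.6% lower to 36.7% and 10.1%. Leaving out 1 library moved Gdf15 between 1.53 and 2.64 and Inhbb between 1.35 and 2.93.

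With a replicate block limma called 0 genes higher, 0 lower and 0 members, with a smallest adjusted p of 0.115. Deviations of same-numbered libraries correlated at -0.13, 0.03 and -0.09, and no library correlated best with its own number. No pairing by number was seen, but deviations from means of 3 libraries cannot exclude it. Depth limits Mstn, Bmp10 and Gdf15 most.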

Other observations

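Neutrophil genes, looked at after their values were seen, were low in vehicle libraries. S100a8, a calcium-binding protein of neutrophils, had 1.92, 5.71 and 1.78 normalized counts in vehicle and 14.5, 129.8 and 107 in doxorubicin replicates 1, 2 and 3, and its partner S100a9 had 2.54, 3.83 and 8.80 and then 24.0, 264 and 151. Retnlg was listed at 0 in all vehicle libraries and had 2.09, 93.6 and 48.0 in the doxorubicin libraries. These 3 genes were highest in doxorubicin replicate 2, whereas Csf3r, a receptor gene of the same list, had 5.42, 11.2 and 9.31 in vehicle and 10.2, 46.6 and 94.9 in doxorubicin libraries, highest in replicate 3 and with overlap. The log2 fold changes of S100a8 and S100a9 were 3.99 and 4.18, and 4.97 and 5.19 without doxorubicin replicate 1. Their vehicle means of 3.14 and 5.06 lay below the minimum mean of 10. Both genes entered the fit only through their doxorubicin values, so no p value is given for them. Ly6g, a defining neutrophil surface marker in mice, was listed at 0 in 4 libraries and at 1.20 and 1.48 in doxorubicin replicates 2 and 3.

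Macrophage markers did not all go the same way. Of 10 tested, 8 were higher without overlap (80%, against 19.2% of all genes). Lyz2, the lysozyme gene with the highest mean, had 798, 772 and 728 normalized counts in vehicle and 1382, 2083 and 6811 in doxorubicin libraries. Adgre1, which encodes F4/80, had 95.1 to 116 normalized counts in vehicle libraries and 146, 173 and 1818 in doxorubicin replicates 1, 2 and 3. Cx3cr1, the fractalkine receptor, had 49.1 to 72.8 in vehicle libraries and 53.6, 4.80 and 42.6 in the doxorubicin libraries. Fabp4, the leading endothelial marker, had 3742 to 6469 in vehicle and 10027 to 14691 in doxorubicin libraries. Rgs5, the leading mural marker, had 4333 to 7807 in vehicle and 5270 to 9595 in doxorubicin libraries. The other 9 mural markers summed to 5973 to 7425 in vehicle and to 6516, 3287 and 4632 in doxorubicin replicates 1, 2 and 3. Of the 8 tested among them, 3 had positive and 5 negative differences. Pf4, a platelet and macrophage chemokine, had 60.0 to 62.0 in vehicle and 126, 129 and 304 in doxorubicin libraries. Lymphocyte markers were low, Cd4 having 8.89 to 17.5 and 4.81 to 21.0, their 10 genes summing to 27.2 to 55.2 in vehicle and 16.8 to 106 in doxorubicin libraries.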
